A study of Mus musculus with 6 samples.

Results

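The colon is lined by mucus that goblet cells secrete and by mucins that stay anchored in the membrane of epithelial cells, and 10 genes of these layers were followed in DSS colitis. They were picked by name, as rows of the deposited table whose gene name is *Muc2*, *Fcgbp*, *Clca1*, *Zg16*, *Tff3*, *Agr2*, *Muc13*, *Muc3*, *Muc4* or *Muc1*. All 10 are among the 27202 rows of the table, and all 10 passed the filter on low values that left 16246 genes for testing. RNA was sequenced from whole colon of 3 mice of the genotype *Nedd4l fl/fl Villin Cre* and 3 littermates of the genotype *Nedd4l fl/fl*, called cKO and WT here after the titles of their libraries. Both groups carried the floxed *Nedd4l* alleles. They differed in a Cre transgene under the Villin promoter, which deletes *Nedd4l* in intestinal epithelial cells (IECs) throughout life, and the other cells of the colon kept the gene. The mice were 8 to 10 weeks old and all had been given 2% DSS, dextran sulfate sodium, a polymer that damages the lining of the colon, in the water they drank for 7 days. No library of untreated mice was analysed here, so the values compare genotypes under DSS and say nothing of the effect of DSS.

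Goblet cells store densely packed MUC2 polymers in granules, and on release the polymers swell into the gel that keeps bacteria away from the epithelium. FCGBP, CLCA1, ZG16 and TFF3 are secreted with MUC2 and become part of that gel, while AGR2 is an endoplasmic reticulum protein needed to fold and assemble it. The transmembrane mucins MUC13, MUC3, MUC4 and MUC1 stand on the apical surface of epithelial cells, enterocytes included, where they form the glycocalyx beneath the gel. Since the RNA came from whole tissue, fewer goblet cells and less RNA per goblet cell cannot be told apart.

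Goblet cells arise under the basic helix-loop-helix factor ATOH1, and factors of this class bind E-box elements. Short elements were therefore looked for on both strands of the 250 bases before the RefSeq start of each gene (GRCm38.p6): the E-box CAGCTG and CCACCC, a core of the kind bound by Krüppel-like factors such as KLF4. RefSeq promoters matched 7 of the 10 genes, in 8 windows, since *Muc13* has more than 1 start. CAGCTG was present in *Muc2* and *Fcgbp*, that is in 2 of the 7 genes, and in 13.0% of all 32851 promoter windows. CCACCC was present in 5 of the 7, namely *Muc2*, *Fcgbp*, *Agr2*, *Muc4* and *Muc3*, and in 28.1% of all windows. The 2 windows with both elements are shown because they belong to the gel-forming mucin and to a major protein of the gel, with the elements in capitals. The *Muc2* window is chr7:141690090-141690339 on the plus strand and the *Fcgbp* window is chr7:28070986-28071235 on the plus strand.
Muc2: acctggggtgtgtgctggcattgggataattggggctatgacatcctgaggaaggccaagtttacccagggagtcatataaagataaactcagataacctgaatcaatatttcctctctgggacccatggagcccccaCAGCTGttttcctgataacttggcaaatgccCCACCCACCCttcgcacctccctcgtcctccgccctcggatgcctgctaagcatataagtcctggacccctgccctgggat
Fcgbp: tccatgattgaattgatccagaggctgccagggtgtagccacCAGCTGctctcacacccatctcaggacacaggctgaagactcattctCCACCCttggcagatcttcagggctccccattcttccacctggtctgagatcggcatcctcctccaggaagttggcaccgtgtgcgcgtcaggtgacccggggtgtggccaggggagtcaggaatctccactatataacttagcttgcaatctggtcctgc
In *Muc2* the E-box began 112 bases before the start and was followed by a CCACCCACCC run that holds CCACCC 2 times, the copies overlapping. In *Fcgbp* it began 208 bases before the start and CCACCC 161 bases before it. A match of letters is a description of the sequence and not a binding site.

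Libraries held 14914367 to 17547270 counting steps, the step being the smallest value in a library, so that all members, the scarcest of which had at least 217 normalized counts, are far from the counting limit. *Nedd4l* itself stood at 476, 942 and 566 normalized counts in cKO and at 1241, 1271 and 1266 in WT libraries, given here and below in the order of replicates 1, 2 and 3. All cKO libraries were below all WT ones, replicate 2 the least so (log2 fold change −0.99, SE 0.24, adjusted p = 0.225 from limma). Across all genes, replicate 2 of cKO had a mean r of 0.977 with the WT libraries and 0.966 with its own genotype. The second mean takes in cKO replicate 1, whose mean r with the WT libraries, 0.948, was the lowest of all. The 2 means therefore do not show that replicate 2 was closer to the WT libraries than to cKO replicate 3. As markers of the labelled tissue, the 12 pan-epithelial genes were all detected and summed to 231873 to 264505 normalized counts in cKO and 250339 to 267680 in WT libraries.

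None of the 10 mucus layer genes differed between the genotypes at an adjusted p under 0.05 (limma, 3 libraries a genotype), where the background over all tested genes was 0%. At an unadjusted p under 0.05 stood 1 member with a fold change below 0, *Muc3*, and 1 with a fold change above 0, *Muc4*, against 7.08% of all genes lower and 6.91% higher (14% in either direction). For 0 of the 10 did the libraries of one genotype lie clear of the other, against 10.9% of all genes clear and lower and 10.5% clear and higher (21.4% in either direction). The fold changes of 6 members were below 0 and those of 4 above it, with a median of −0.06 on the log2 scale beside 0.0013 over all genes. Only the intervals of *Muc3* and *Muc4* lay to one side of 0, and the intervals of *Clca1*, *Fcgbp*, *Zg16*, *Tff3* and *Muc3* each reached beyond a 2-fold difference.

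**Figure D1:**
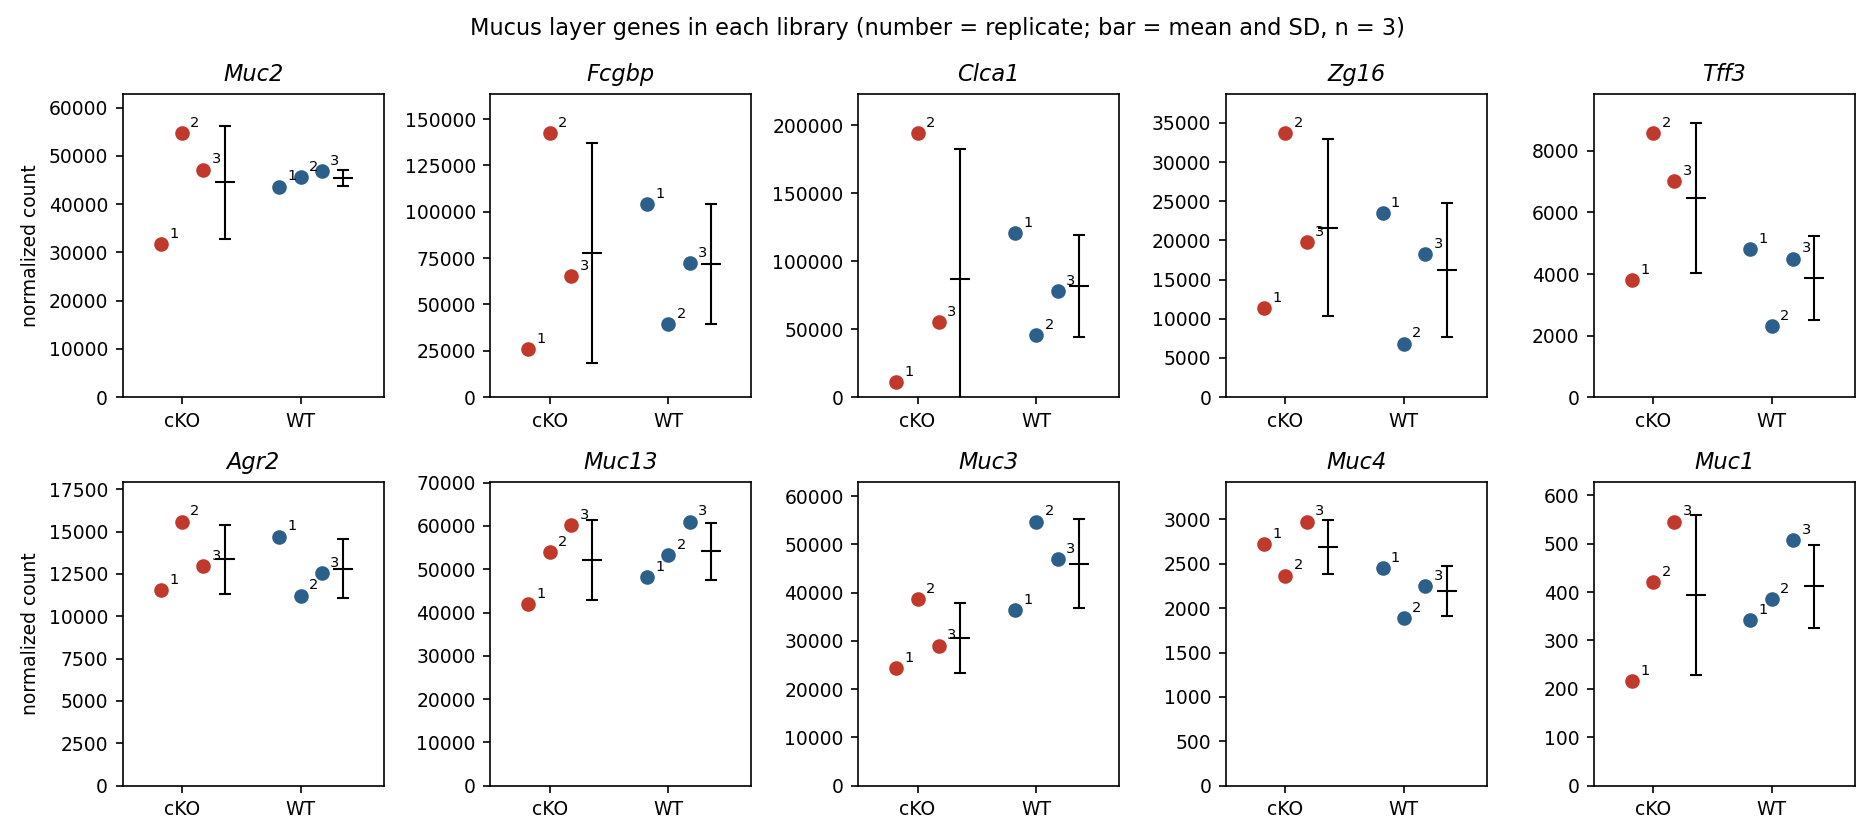
Normalized counts, on axes that start at 0, of the 10 mucus layer genes in each library of cKO (red) and WT (blue) mice. Numbers mark the replicate and black bars give the mean and SD (n = 3), the lower arm for *Clca1* in cKO mice being cut off at 0. The genotypes overlap in every panel, and replicate 2 of cKO is the highest of all libraries for *Muc2*, *Fcgbp*, *Clca1*, *Zg16*, *Tff3* and *Agr2*.

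*Muc2* (ENSMUSG00000025515, chr7:141690340-141754693 of GRCm38, plus strand) encodes the gel-forming mucin of the colon. Its normalized counts were 31745, 54736 and 47146 in cKO replicates 1, 2 and 3, and 43651, 45639 and 46914 in WT replicates 1, 2 and 3. The controls sat close together, and the cKO libraries held the lowest value, in replicate 1, and the 2 highest. Means were 44542 ± 11714 and 45401 ± 1644 (SD, n = 3 each). The log2 fold change was −0.06 (95% interval −0.51 to 0.38, adjusted p = 0.897 from limma). Without cKO replicate 1 it was 0.16, and the 2 remaining libraries then lay above all controls, with no adjusted p under 0.05. *Muc2* thus spanned 1.72-fold within cKO mice and 1.07-fold within controls.

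Transcripts of the proteins that accompany MUC2 in the gel varied more from mouse to mouse than *Muc2*, whose SD within genotypes was 0.29 on the log2 scale. *Clca1* (ENSMUSG00000028255, chr3:145003817-145032776, minus strand) encodes a secreted metalloprotease that processes the mucus gel. Its normalized counts were 10947, 194396 and 55029 in cKO replicates 1, 2 and 3, and 120797, 45848 and 78221 in the controls. The lowest and the highest of the 6 libraries thus had the same genotype, 17.8-fold apart, whereas the controls spanned 2.63-fold. The log2 fold change of −0.63 had an SE of 1.08 and a 95% interval from −3.32 to 2.06 (adjusted p = 0.818 from limma). Leaving out replicate 1 gave 0.45 and leaving out replicate 2 gave −1.62. The spread of *Clca1* within genotypes, an SD of 1.55 on the log2 scale, exceeded that of 99.3% of tested genes, whose median SD was 0.20.

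*Fcgbp* (ENSMUSG00000047730, chr7:28071236-28120862, plus strand) encodes the IgG Fc binding protein, a large mucus protein with repeated von Willebrand D domains. It had 26110, 142462 and 65114 normalized counts in cKO libraries and 103986, 39459 and 72352 in WT libraries. Here too the extremes were replicates 1 and 2 of cKO, and the genotypes overlapped fully. Its log2 fold change was −0.10 (SE 0.68, adjusted p = 0.960 from limma), and its spread within genotypes exceeded that of 97.3% of genes. The fold change turned to 0.53 without cKO replicate 1 and to 0.22 without WT replicate 1. *Fcgbp* and *Clca1* put the 6 libraries in one and the same order, from replicate 2 of cKO through WT replicates 1 and 3 down to replicate 1 of cKO.

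*Zg16* (ENSMUSG00000049350, chr7:127050156-127087328, minus strand) encodes a small lectin-like protein that binds Gram-positive bacteria and keeps them off the epithelium. Normalized counts were 11406, 33704 and 19795 in cKO and 23537, 6828 and 18303 in WT libraries. The lowest library was WT replicate 2 and the highest was cKO replicate 2, with the others between them. The log2 fold change was 0.46 (SE 0.59, adjusted p = 0.749 from limma), and without WT replicate 2 it was −0.08.

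*Tff3* (ENSMUSG00000024029, chr17:31125306-31129646, minus strand) encodes trefoil factor 3, a goblet cell peptide that promotes the closing of epithelial wounds. It had 3796, 8576 and 7022 normalized counts in cKO and 4798, 2297 and 4495 in WT libraries. Replicates 2 and 3 of cKO were above all controls, and replicate 1 lay among them. This was the largest positive fold change of the 10 members, 0.74 on the log2 scale, with a 95% interval from −0.29 to 1.76 (adjusted p = 0.462 from limma). The direction held in all 15 alternatives, at 0.40 to 1.08 with adjusted p from 0.174 to 0.689.

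*Agr2* (ENSMUSG00000020581, chr12:35992907-36004087, plus strand), the disulfide isomerase of mucin folding, varied little. Its normalized counts were 11555, 15590 and 12969 in cKO and 14698, 11219 and 12529 in WT libraries. The ranges of the genotypes nearly coincided. The log2 fold change was 0.06 with a 95% interval from −0.26 to 0.38 (adjusted p = 0.865 from limma), and it turned to −0.06 without cKO replicate 2 and to −0.03 without WT replicate 2. Across the 6 libraries *Agr2* spanned 1.39-fold, yet it ordered the libraries exactly as *Zg16* did, which spanned 4.94-fold.

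Among the transmembrane mucins, *Muc13* (ENSMUSG00000022824, chr16:33794037-33819934, plus strand), a mucin with epidermal growth factor-like domains that is abundant on colonic enterocytes and goblet cells, had 42026, 53979 and 60145 normalized counts in cKO and 48102, 53238 and 61002 in WT libraries. The genotypes overlapped over most of their range. Its log2 fold change of −0.07 had a 95% interval from −0.41 to 0.28 (adjusted p = 0.862 from limma), and it turned to 0.08 without cKO replicate 1 and to 0.02 without WT replicate 3. Of the exon bases of *Muc13*, 184 also belong to the antisense gene *Gm15657*, which had 102 to 218 normalized counts. How reads on these shared bases were counted cannot be told, since strand use in counting is not given.

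*Muc3* (ENSMUSG00000037390, chr5:137134922-137149322, minus strand) encodes the large mucin of the intestinal brush border. It had 24343, 38595 and 29006 normalized counts in cKO replicates 1, 2 and 3, and 36405, 54703 and 46912 in the controls. cKO replicates 1 and 3 were below every control, and replicate 2 was above WT replicate 1 only. Means were 30648 ± 7266 and 46007 ± 9182 (SD, n = 3 each), a log2 fold change of −0.59 with an SE of 0.21 and a 95% interval from −1.08 to −0.10. The unadjusted p was 0.024 and the adjusted p 0.313 (limma). The fold change of *Muc3* stayed below 0 in all 15 alternatives, from −0.77 to −0.44 with adjusted p from 0.0605 to 0.556, and leaving out cKO replicate 2 or WT replicate 1 removed the overlap.

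The *Muc3* row covers only part of the gene. Its 1943 exon bases lie within 14399 bases at the 3′ side of a RefSeq gene span of 31125 bases (chr5:137134924-137166048). Upstream in the same span lies another row on the same strand, the lincRNA model *Gm3054* (ENSMUSG00000079174, chr5:137154029-137166070, 265 exon bases). *Gm3054* had 1254, 1526 and 1403 normalized counts in cKO and 1274, 1023 and 943 in WT libraries. In this row cKO replicates 2 and 3 were above all controls and replicate 1 was below 1 of them, a log2 fold change of 0.38 (SE 0.13, unadjusted p = 0.020, adjusted p = 0.305 from limma). The rows on the 3′ and 5′ sides of the *Muc3* span therefore had fold changes of opposite sign, neither past the adjusted threshold, and *Gm3054* was looked up because of its position. *Muc3a*, a neighbouring gene of similar name outside the span, had 1157 to 1321 normalized counts in cKO and 1018 to 1786 in WT libraries, and how reads common to near-identical genes were counted is not stated in the sources used here.

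*Muc4* (ENSMUSG00000079620, chr16:32735886-32782391, plus strand) encodes a transmembrane mucin that binds the receptor ERBB2. Its normalized counts were 2723, 2367 and 2976 in cKO and 2448, 1889 and 2248 in WT libraries. Only cKO replicate 2 fell among the controls, below WT replicate 1. The log2 fold change was 0.29 with an SE of 0.12 and a 95% interval from 0.01 to 0.58, an unadjusted p of 0.044 and an adjusted p of 0.348 (limma). It stayed above 0 in all 15 alternatives, at 0.19 to 0.39 with adjusted p from 0.0644 to 0.607. *Muc4* shares 627 exon bases with *Muc20* on the other strand, which had 19.9 to 38.2 normalized counts.

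*Muc1* (ENSMUSG00000042784, chr3:89229057-89233381, plus strand), which encodes a mucin of many epithelia with a signalling tail, was the scarcest member. It had 217, 420 and 546 normalized counts in cKO and 343, 386 and 507 in WT libraries. Both the lowest and the highest library were cKO. The log2 fold change of −0.14 had an SE of 0.35 (adjusted p = 0.875 from limma) and turned to 0.24 without cKO replicate 1 and to 0.02 without WT replicate 3.

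**Figure D2:**
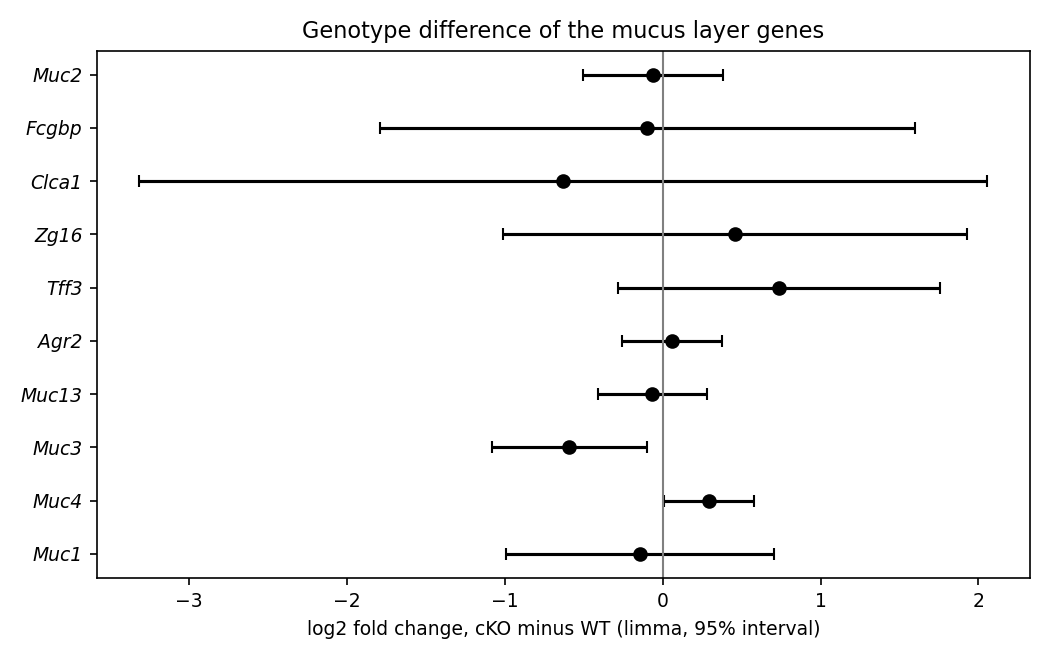
Log2 fold change of each mucus layer gene, cKO minus WT, on the log2(normalized count + 1) scale, with points for the limma estimate and lines for the 95% interval (3 libraries each). The interval of *Muc3*, −1.08 to −0.10, and that of *Muc4*, 0.01 to 0.58, lie to one side of 0, and that of *Clca1* is the widest.

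Compared per kilobase of exon, *Clca1* had the highest mean level over the 6 libraries with 22295 normalized counts per kilobase, followed by *Muc3* with 19726, *Muc13* with 17473, *Zg16* with 15059, *Tff3* with 10475, *Agr2* with 10142, *Fcgbp* with 7137, *Muc2* with 6310, *Muc4* with 208 and *Muc1* with 172. Only the steps from *Zg16* to *Tff3* and from *Muc2* to *Muc4* held in all 6 libraries. *Clca1* was above *Muc3* in 2 of the 6, and the order of the other neighbours also changed between libraries. The length of *Muc2* in the table is 7127 exon bases and that of *Muc3* is 1943, the first gene tagged as a fragmented locus in GENCODE and the second a partial model, so their places in this order are the least certain.

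The 10 genes together took 1.06%, 3.30% and 1.89% of the normalized counts in cKO replicates 1, 2 and 3, and 2.49%, 1.66% and 2.16% in the controls. Both the smallest and the largest share were thus in cKO mice. The most abundant member by count was *Muc13* in cKO replicate 1, *Clca1* in replicate 2 and *Fcgbp* in replicate 3, while it was *Clca1*, *Muc3* and *Clca1* in the controls. Averaged over *Muc2*, *Fcgbp*, *Clca1*, *Agr2*, *Tff3* and *Zg16*, the log2 difference from the control mean was −0.85, 0.91 and 0.16 in cKO replicates 1, 2 and 3, and 0.43, −0.57 and 0.14 in controls. The genotypes differed by 0.08 in this mean, against an SD of 0.72 within genotypes.

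The secreted and folding genes were then set against general epithelial genes. The mean log2 level of the 12 pan-epithelial markers, among them *Epcam* and *Cdh1*, lay between 13.26 and 13.44 in all 6 libraries, and the 3 with the smallest p, *Krt19*, *Krt8* and *Elf3*, had fold changes of −0.22, −0.19 and 0.21 on the log2 scale. Single markers varied more than this mean, *Cldn4* with an SD of 0.77 within genotypes and a fold change of 0.54. Relative to the mean of the markers, the 6 secreted and folding genes stood at 0.25, 2.03 and 1.28 in cKO and at 1.49, 0.53 and 1.37 in WT libraries on the log2 scale. The genotypes differed by 0.06, again well inside their spread. Relative to 10 absorptive colonocyte markers, whose median fold change was −0.52 with 0 of 10 at an unadjusted p under 0.05, the same 6 genes differed by 0.52, against an SD of 0.45 within genotypes. They stood at 2.02, 2.78 and 2.76 in cKO and 2.23, 1.47 and 2.32 in WT libraries, so that cKO replicates 2 and 3 were above all controls and replicate 1 among them. The smallest p of those markers belonged to *Slc26a3*, *Ms4a8a* and *Guca2a*, at −0.69, 0.17 and −0.64.

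**Figure D3:**
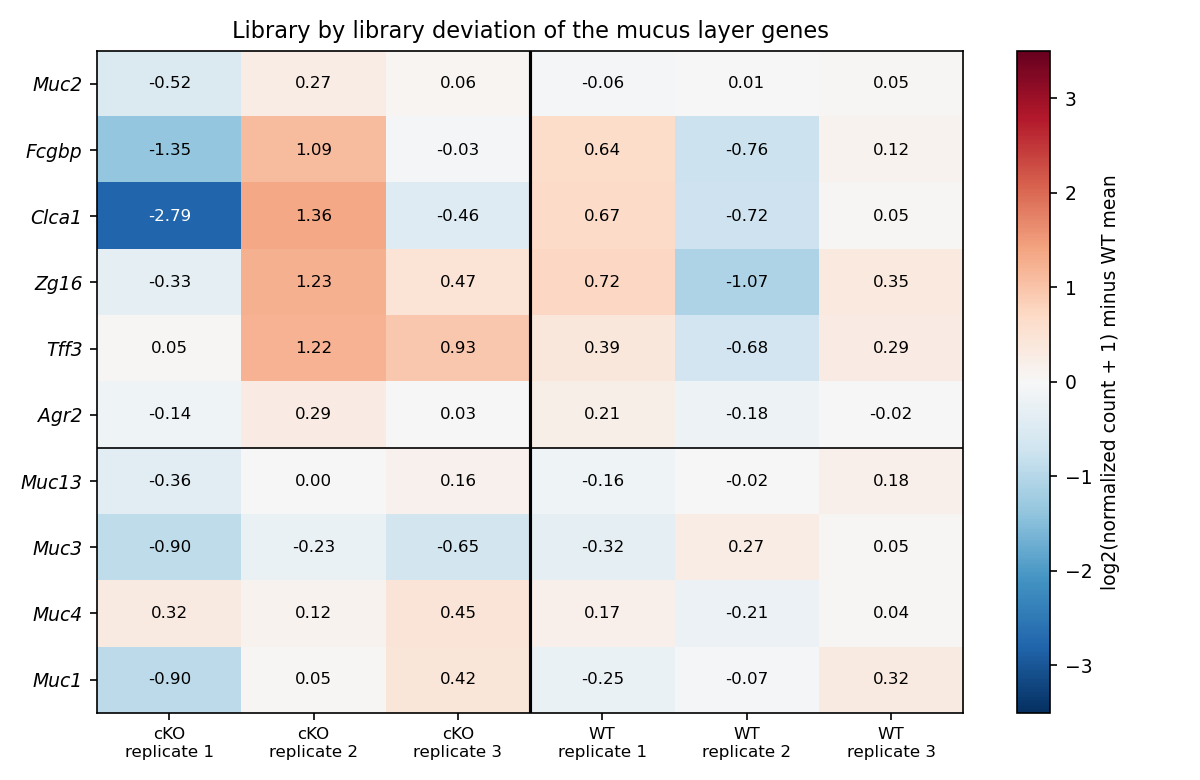
Deviation of each mucus layer gene (rows) in each library (columns) from the mean of the WT libraries, in log2(normalized count + 1), with red above and blue below the control mean. The upper 6 rows, the secreted and folding genes, are mostly below 0 in cKO replicate 1, down to −2.79 for *Clca1*, and above 0 in replicate 2, up to 1.36 for the same gene. *Muc1* and *Muc13* are also below 0 in cKO replicate 1, at −0.90 and −0.36, but within 0.05 of 0 in replicate 2. *Muc3*, *Muc4* and, among the upper rows, *Tff3* keep one sign across the 3 cKO libraries.

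As a description over the same 6 libraries, the log2 values of *Fcgbp* and *Clca1* correlated at r = 0.96, those of *Zg16* and *Agr2* at 0.93 and those of *Zg16* and *Tff3* at 0.92. *Muc2* went with *Clca1* at 0.90 and *Fcgbp* at 0.81, with the transmembrane *Muc1* at 0.83 and *Muc13* at 0.77, and less with *Zg16* at 0.51 and *Tff3* at 0.47. Among the transmembrane mucins, *Muc1* and *Muc13* correlated at 0.98, while *Muc3* and *Muc4* ran against each other at −0.92. Each of these values rests on 6 points, and all share libraries and scaling.

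Of 11870 other protein-coding genes with a mean of at least 50, those whose log2 values correlated most with the averaged secreted and folding genes over the 6 libraries were *Kansl3* (r = 0.995), *Dlgap4* (0.992), *1110032A03Rik* (0.991), *Hpd* (0.989), *Ech1* (0.988), *Gigyf2* (0.985), *Hadha* (0.984), *Gpt2* (0.983), *Tent5c* (0.983) and *Necap2* (0.983). These genes were picked from 11870 for their correlation over 6 libraries, so the high r follows from the choice and is only a description. *Hpd*, a tyrosine-degrading dioxygenase, is given as an example, with 272, 663 and 463 normalized counts in cKO and 583, 331 and 493 in WT libraries. *Hpd* was lowest in replicate 1 and highest in replicate 2 of cKO, as *Fcgbp* and *Clca1* were.

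Expressed as a ratio to *Muc2* in the same library, which was chosen after the values had been seen, 2 of the other 9 members no longer overlapped between the genotypes. *Tff3* amounted to 12.0%, 15.7% and 14.9% of *Muc2* in cKO replicates 1, 2 and 3, and to 11.0%, 5.03% and 9.58% in the controls. All 3 ratios were above the controls, by 0.80 on the log2 scale. *Muc3* amounted to 76.7%, 70.5% and 61.5% of *Muc2* in cKO and to 83.4% and 119.9% in WT replicates 1 and 2, while in WT replicate 3 the 2 counts were nearly equal. Here all 3 were below the controls, by −0.53 on the log2 scale. For both ratios the exact two-sided permutation p was 0.10, the smallest that 3 against 3 allow. The background is 3.81% of all other genes clear and lower and 3.71% clear and higher relative to *Muc2* (7.52% in either direction). After quantile normalization, the only alternative scaling that could alter a ratio within a library, 0 members were without overlap.

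**Figure D4:**
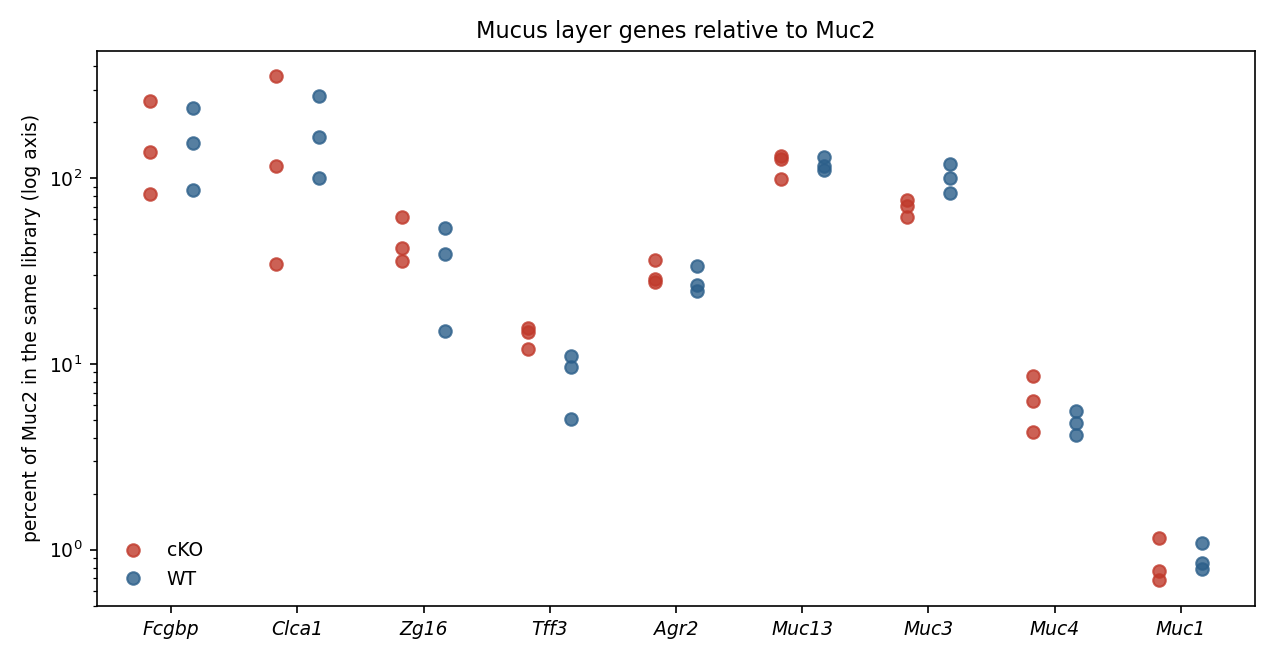
Level of 9 mucus layer genes as a percentage of *Muc2* in the same library, on a log axis, with 1 point per library of cKO (red) and WT (blue) mice. *Tff3* ratios lie at 12.0% to 15.7% in red and 5.03% to 11.0% in blue, *Muc3* ratios at 61.5% to 76.7% in red and 83.4% to 119.9% in blue, and the other 7 genes overlap.

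Genes that act with the mucus layer proteins were read from the same fit, and 0 passed the adjusted threshold in any list (limma). Of 12 tested secreted goblet cell and mucus proteins, 7 had fold changes below 0 and 5 above, with *Dmbt1*, a scavenger-receptor glycoprotein of the mucosa, the only one at an unadjusted p under 0.05 (0.47 on the log2 scale, adjusted p = 0.342). *Reg4*, *Ang4* and *Tgm3* were lowest in cKO replicate 1. *Reg4*, a goblet and enteroendocrine lectin, had 1237, 10672 and 3368 normalized counts in cKO and 7909, 9179 and 6330 in WT libraries. The antimicrobial *Ang4* ran from 14.4 in replicate 1 to 13877 in replicate 2 of cKO, with 3186 to 4719 in controls. *Tgm3*, a transglutaminase that crosslinks mucus, had the next smallest p after *Dmbt1*, with a log2 fold change of −1.12 (adjusted p = 0.467). Its lowest value, 2281, was in replicate 1 of cKO. *Mep1a*, a meprin subunit, followed at −0.47 (adjusted p = 0.531). Of the other mucins, *Muc6*, *Muc3a* and *Muc20* were tested, with log2 fold changes of 0.95, −0.13 and −0.04 and no p under 0.05.

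Among 10 goblet cell transcription factors, 8 fold changes were below 0 and 2 above, with a median of −0.20. *Atoh1*, the factor that commits progenitors to the secretory lineage, had 460, 840 and 646 normalized counts in cKO and 953, 848 and 905 in WT libraries. *Creb3l1*, a membrane-bound factor of secretory capacity, had 2772, 4670 and 4036 against 5384, 5002 and 5164. For both, every cKO library was below every control. These were the only 2 of the 10 without overlap, beside 10.9% of all genes clear and lower (21.4% in either direction). Replicate 2 of cKO, at 840, came close to the lowest WT value of *Atoh1*, 848. Log2 fold changes were −0.52 for *Atoh1* and −0.47 for *Creb3l1* (adjusted p = 0.337 and 0.331 from limma). *Spdef*, which drives goblet cell maturation, was at 0.03 and *Xbp1*, a factor of the secretory stress response, at −0.02, and *Foxa2*, the third smallest p, was at −0.53 (adjusted p = 0.455).

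Of 16 tested enzymes that build the O-glycans of mucins, 3 above 0 and 2 below passed the unadjusted threshold, beside 14% of all genes in either direction. *C1galt1c1*, the chaperone COSMC that core 1 synthesis needs, had 855, 908 and 883 normalized counts in cKO and 642, 599 and 599 in WT libraries. The genotypes did not overlap, and the log2 fold change was 0.52 (SE 0.08, adjusted p = 0.123 from limma). *Gcnt3*, which makes core 2 and core 4 branches, was at 0.65 (adjusted p = 0.219) and *Galnt12*, which starts O-glycans, at 0.27 (adjusted p = 0.278), both without overlap. *Chst4*, a sulfotransferase, was at −0.42 (adjusted p = 0.301) and the sialyltransferase *St6galnac2* at −0.39 (adjusted p = 0.352). The median of the list was 0.15. Of its 16 tested genes, 5 lay clear and higher in cKO and 1 clear and lower, beside 10.5% and 10.9% of all genes.

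Among 11 genes of goblet cell ion transport and granule release, *Rep15*, a RAB15 effector, was at 0.73 on the log2 scale at an unadjusted p under 0.05 (adjusted p = 0.301 from limma). The potassium channel *Kcnn4* was at −0.40 (adjusted p = 0.270), and the median of the list was 0.13. Of 11 secretory endoplasmic reticulum genes only *Ero1l*, the oxidase that recharges disulfide isomerases, was past the unadjusted threshold, at 0.32 (adjusted p = 0.301), with a median of −0.06 and with *Sdf2l1* and *Pdia4* next at −0.35 and −0.23. Each of these lists held fold changes of both signs.

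**Figure D5:**
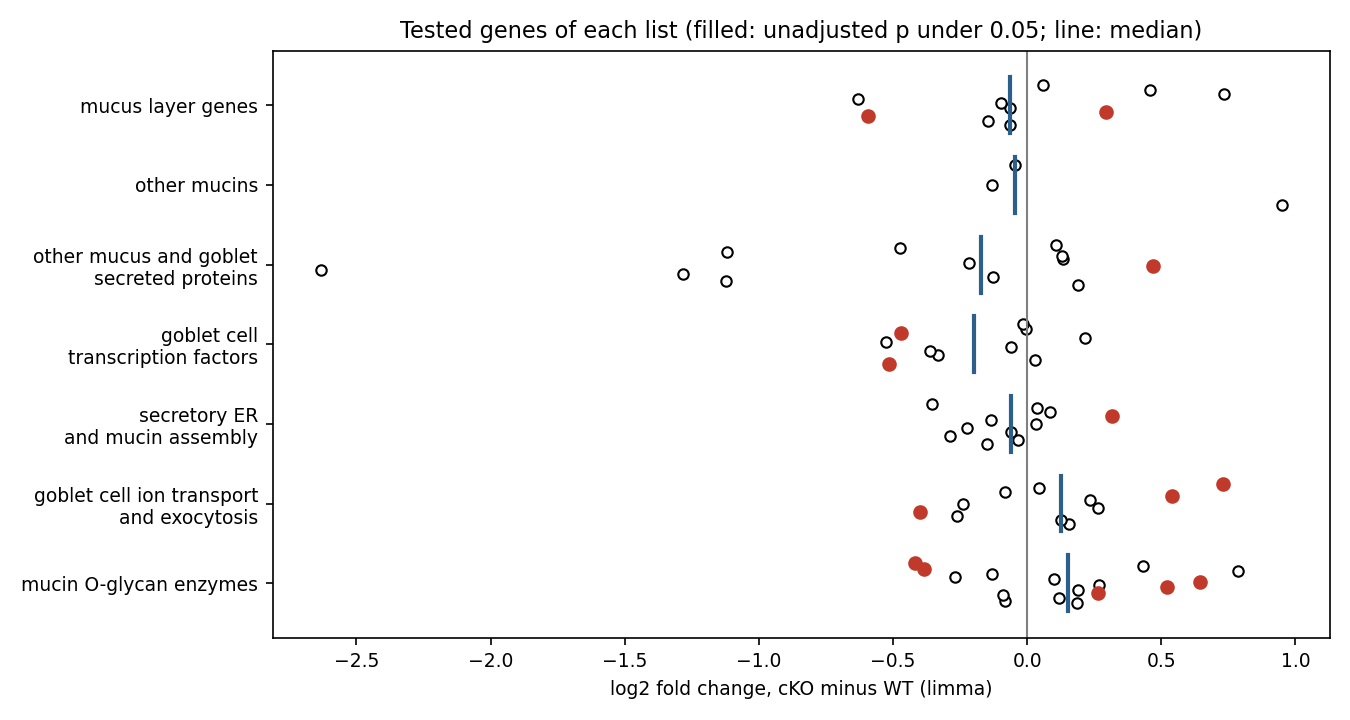
Log2 fold change of every tested gene, cKO minus WT, in the mucus layer genes and 6 related lists. Each point is 1 gene, filled red at an unadjusted p under 0.05, and the blue line is the median of the list, −0.20 for transcription factors and 0.15 for O-glycan enzymes.

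Markers of other cell types also varied between the libraries. Fibroblast markers (8 genes, all with fold changes above 0, median 0.67) summed to 22287 to 44387 normalized counts in cKO and 11335 to 19346 in WT libraries, with the highest sum in replicate 1, where *Muc2*, *Fcgbp* and *Clca1* were lowest. Of these, *Col1a2*, *Col1a1* and *Col3a1* had log2 fold changes of 0.98, 1.14 and 1.08 at an unadjusted p under 0.05. Leukocyte markers (10 genes, 8 above 0) summed to 9144 to 16435 and 6172 to 8543, again highest in replicate 1, with *S100a9* at 2680, 27.6 and 348 normalized counts there and 10.8 to 15.8 in controls, and with *Lyz2* at 0.54 and *S100a8* at 3.70. Smooth muscle markers (8 genes, all below 0) overlapped at 6036 to 11502 and 5559 to 21799, led by *Tagln* at −0.47, *Actg2* at −0.72 and *Smtn* at −0.23. Of 6 Paneth cell markers 2 were analysed here, *Mmp7* and *Lyz1*, which summed to 186 to 274 and 23.7 to 95.9. *Mmp7*, at 5.28, had 144, 36.5 and 193 normalized counts in cKO and 1.98, 0 and 4.99 in WT libraries. *Lyz1*, at 0.92, overlapped, with 78.6, 149 and 81.5 in cKO and 21.7, 69.3 and 90.9 in WT libraries. Of 7 enteroendocrine and tuft markers *Trpm5* was at −1.76, *Chgb* at 0.55 and *Dclk1* at −0.26. None of these genes had an adjusted p under 0.05 (limma), and no marker analysed was at 0 in all 6 libraries.

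Position along the colon was looked at through segment markers, since goblet cell density differs along it. *Cyp2c55*, a cytochrome P450 gene of the proximal colon, had 316, 2221 and 24.8 normalized counts in cKO and 5528, 1242 and 843 in WT libraries. It was scarcest in replicate 3 of cKO and so did not follow the secreted mucus genes, which were lowest in replicate 1 or in WT replicate 2. *Hoxa13*, a distal patterning factor, was at −0.24 (adjusted p = 0.344 from limma). The part of segment, inflammation or cell makeup in the values of the mucus layer genes was not tested.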

How the data were processed

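Libraries of whole colon RNA (NEBNext Ultra, 3 *Nedd4l fl/fl Villin Cre* and 3 *Nedd4l fl/fl* mice) were sequenced. The authors deposited 1 table of normalized counts, a signal equal to reads per gene divided by a size factor per library, and all 6 library columns were used. It also holds the authors' genotype means, fold changes, p-values and adjusted p-values, which were not used. The submitters' processing notes name HISAT2 2.0.5, featureCounts 1.5.0-p3 and the human build hg18, but the coordinates are mouse: 97.2% of 27164 identifiers found in GENCODE release 21 (GRCm38) have the same ones there. Strand use in counting is not given in the sources used here.

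Values were whole multiples of a step per library (100% within 1e-04), but the reads behind a step are not stated, so no count model was fitted. Genes with a mean of at least 10 were compared as log2(value + 1), which understates changes of low genes, by lmFit and eBayes (trend, robust) of limma 3.58.1 (R 4.3.3), and p was adjusted after Benjamini-Hochberg over 16246 genes (threshold 0.05). The p-values measure only the spread between these libraries. The fit was tested on simulated data. Plots used Python 3.11.15 and matplotlib 3.10.9.

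The members and lists were chosen with earlier results of these data known. Named were all members, *Nedd4l*, in each list the genes at an unadjusted p under 0.05 and at least the 3 with the smallest p, and the 10 genes most correlated with the averaged secreted and folding members. *Reg4*, *Ang4*, *Spdef*, *Xbp1*, *Gm3054*, *Gm15657* and *Cldn4* were added after values were seen, and some genes of the lists are not reported here. Of 2 rows for *St6galnac2* the one with the higher mean was used. Alternatives were other pseudocounts, filters and scalings, array weights, a replicate block and leaving out each library.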

Additional observations from a re-analysis of the deposited data

How the results depend on the processing

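No alternative gave a member an adjusted p under 0.05 (15 alternatives with a test). *Muc3*, *Muc4* and *Tff3* kept their direction in all 15. Over all genes, limma called 0; it called 30 with no filter (23 lower, 7 higher), 631 with array weights (369 lower, 262 higher), and 0 to 122 when 1 library was left out, the 122 without cKO replicate 2 and 24 without replicate 1. Members at an unadjusted p under 0.05 numbered 1 with no filter (*Muc4*), 1 after division by the library total (*Muc3*), 3 with array weights (*Muc3*, *Muc4* and *Tff3*), 0 after quantile normalization and 0 to 2 when 1 library was left out. Members without overlap numbered 0 to 2 when 1 library was left out, namely *Muc2* and *Tff3* without cKO replicate 1, and *Muc3* and *Muc4* without its replicate 2 or without WT replicate 1. The median of the members ran from −0.16 to 0.26, the averaged secreted and folding genes from −0.34 to 0.54, and their level relative to epithelial markers from −0.36 to 0.53, the upper ends without cKO replicate 1. Array weights turned *Muc2* to 0.027, *Muc1* to 0.24, *Muc13* to 0.078 and *Muc20* to 0.31. Leaving out single libraries turned the sign of values near 0 or of wide error: the ranges were −0.23 to 0.16 for *Muc2*, −0.43 to 0.24 for *Muc1*, −0.18 to 0.081 for *Muc13*, −0.69 to 0.53 for *Fcgbp*, −1.62 to 0.45 for *Clca1*, −0.31 to 0.14 for *Muc20*, −0.057 to 0.16 for *Agr2*, −0.55 to 0.052 for *Dclk1*, −0.078 to 0.85 for *Zg16*, −0.34 to 0.068 for *Muc3a* and −0.36 to 0.024 for *Smtn*. The cause was not tested. Array weights, or the fit without cKO replicate 2, brought *Nedd4l*, *Trpm5* and *Mmp7* under the adjusted threshold, and array weights also *Kcnn4*, *C1galt1c1* and *Gcnt3*.

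The replicate numbers did not pair the samples (r of same-numbered deviations −0.03, −0.09 and −0.06), and with the replicate block 0 genes were called, 2256 had an unadjusted p under 0.05, and *Muc3* and *Muc4* were the 2 members among them. The 2 planned count tests were not run. With 3 libraries a genotype and SEs of 1.08 and 0.68 on the log2 scale for *Clca1* and *Fcgbp*, a 2-fold difference in these genes was not detectable.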
